A study of Mus musculus with 8 samples.

Results

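The 42 genes described here encode the proteins that drive a cell through G2 phase and mitosis: mitotic cyclins and kinases, the spindle checkpoint, kinetochore, spindle and cytokinesis proteins. They were chosen by symbol, as genes of known function, from the 24421 gene symbols counted in each library, and all 42 were found and passed the filter on low counts. Earlier results of these data were known when the list was drawn up, so the shares called below describe it and are no independent test. The RNA came from naive CD4+ T cells purified with an isolation kit from the spleen of male C57BL/6 mice that were 6 to 8 weeks old. Titles divide the 8 libraries into E1KO (n = 4) and E1WT (n = 4). The study set wild-type mice against mice with a floxed Pcbp1 gene and Cre driven by Cd4 (Pcbp1fl/flCd4-Cre), and the genotype fields name Cd4-Cre in the control genotype too (Pcbp1+/+Cd4-Cre). Cd4-Cre acts from the thymus onward and so also in CD8 T cells. The genotype field gives the wild type for each E1KO title and the floxed genotype for each E1WT title, so the libraries are named by title and folds divide the E1KO-titled level by the E1WT-titled level. No label says which animal a library came from, so the spread between libraries may be technical.

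Cells enter mitosis when cyclin A2 and the B-type cyclins activate the kinase CDK1. The kinases Polo-like kinase 1 and the Aurora kinases then build the spindle, the checkpoint holds chromosome separation until every kinetochore is attached, and the anaphase-promoting complex ends mitosis by marking cyclin B and securin for destruction. Transcripts of these genes are kept low in resting cells by the DREAM complex and rise in G2 under MuvB, B-MYB and FOXM1. Naive T cells rest outside the cycle, so in a bulk sample of them mitotic transcripts may come mainly from a minority of dividing cells, which was not tested. More dividing cells, of this or another cell type, cannot be told apart from more mitotic RNA per cell.

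Pcbp1, the gene targeted in the study, followed the titles and went against the genotype fields. Its level was 38.3, 38.8, 39.8 and 41.8 CPM (counts scaled to the library total times its TMM factor) in E1KO 1 to 4 and 222, 243, 227 and 203 CPM in E1WT 1 to 4 (log2 fold -2.49 ± 0.07, SE; adjusted p = 2.57e-09 in the edgeR quasi-likelihood test). The libraries held 28264655 to 36738202 gene counts. The share of counts assigned to no gene was 28.2% to 30.8% in the E1KO-titled and 33.3% to 37.0% in the E1WT-titled libraries, so it separated the titles fully, and its part in the results was not tested. Cd4 was lower in the E1KO-titled libraries, at a mean of 850 CPM against 1023 CPM in the E1WT-titled ones. Its groups did not overlap (log2 fold -0.27 ± 0.05, adjusted p = 0.00365 in edgeR). Although every animal is described as male, Xist, the RNA of the inactive X chromosome, lay at 365 to 425 CPM in the E1KO-titled and at 0.55 to 2.89 CPM in the E1WT-titled libraries. The Y-linked Ddx3y lay at 52.0 to 57.5 and 103 to 115 CPM. Each E1KO-titled library thus held both Xist and Ddx3y RNA, and whether a library pooled several animals was not tested. Differences between the titles cannot be told apart from this sex-linked one, and among the members only Kif4 lies on chromosome X.

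Most mitotic genes were higher in the E1KO-titled libraries, each by a modest amount. Of the 42 members 30 rose and 0 fell at an adjusted p under 0.05 in edgeR, a share of 71.4% that rose, where 23.3% of all 13333 tested genes were called, 12.2% higher and 11.1% lower. In DESeq2 32 rose and 0 fell, and 0 were lower in edgeR at an unadjusted p under 0.05. The log2 fold was positive for 41 of the 42. The median log2 fold was 0.47, which is 1.39-fold, against 0.007 over all tested genes, and the quartiles were 0.32 and 0.62. None reached 2-fold and 14 reached 1.5-fold. All 4 E1KO-titled libraries lay above all 4 E1WT-titled ones for 29 members, where 13.9% of all tested genes did so, and for 0 members was the order the opposite. The 29 were all among the 30 that rose, and Spc25 was the other.

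The shift was of like size in every library. Relative to each gene's own mean over the 8 libraries, the median member stood at 0.24, 0.22, 0.23 and 0.24 on the log2 scale in E1KO 1 to 4 and at -0.25, -0.23, -0.20 and -0.26 in E1WT 1 to 4. Of the 42 members 36 to 40 lay above their own mean in each E1KO-titled library and 1 to 7 in each E1WT-titled library. The summed level of the members was 1081, 1035, 982 and 1010 CPM in E1KO 1 to 4 and 760, 736, 774 and 822 CPM in E1WT 1 to 4. Mki67 and Top2a together gave 28.9% of these sums in the E1KO-titled and 29.9% in the E1WT-titled libraries. Without both genes the libraries of a title lay closer together, at 727 to 732 CPM and at 533 to 546 CPM.

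**Figure D1:**
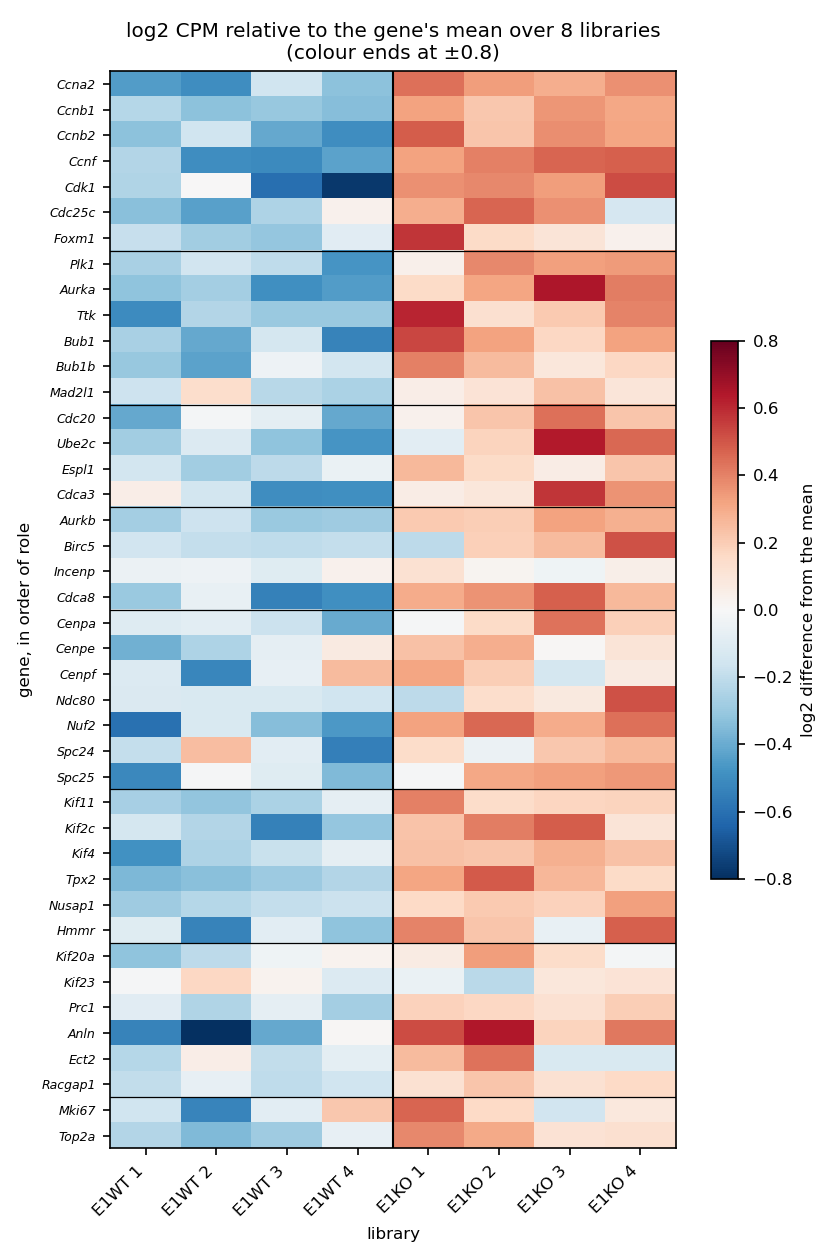
Level of the 42 genes (rows, grouped by role with lines between roles) in the 8 libraries (columns), as log2 CPM minus the gene's mean over the libraries. The E1KO-titled columns on the right are mostly red and the E1WT-titled columns on the left mostly blue, with 36 to 40 and 1 to 7 members above their own mean, and Incenp and Kif23 are pale throughout.

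The promoters were searched for the short sequences known from G2/M genes: the CCAAT box, bound by NF-Y (CCAAT or, on the other strand, ATTGG), and the cell cycle homology region (CHR), bound by MuvB (TTTGAA or TTCAAA on the other strand, and TTTAAA, which reads the same on both). RefSeq windows on GRCm38.p6, from 250 bases before to 50 bases after the start, were at hand for 34 members and not for Ccna2, Cdc25c, Foxm1, Aurkb, Incenp, Spc24, Tpx2 and Kif20a. A CCAAT box was found in 27 of the 34 (79.4%), against 38.5% of 10095 tested genes and 37.9% of all 27025 genes with a window. A CHR was found in 30 (88.2%), against 19.0% and 27.8%, and both motifs stood in 26 (76.5%), against 7.51% and 10.9%. In 27 members (79.4%) a CHR began within 50 bases of the start on either side, as in 4.91% of tested genes. The members are textbook cell cycle genes, several of them known CHR targets, so the shares describe the list and do not test it. Among members with a window that rose, 21 of 26 held both motifs, and among those not called 5 of 8 did. A CHR was about as frequent in both groups, in 23 of 26 (88.5%) and 7 of 8 (87.5%). A CCAAT box was in 22 of 26 and 5 of 8, a difference that rests on few windows and was not tested.

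The 6 promoters below belong to the members with the smallest p among those given by library further on that hold both motifs before the start. Each is the 250 bases upstream of the start, 5′ to 3′ on the strand of the gene, with CCAAT boxes and CHRs in capitals. Positions count back from the base before the start, which is -1, and give the leftmost base of a match.
Ccnf: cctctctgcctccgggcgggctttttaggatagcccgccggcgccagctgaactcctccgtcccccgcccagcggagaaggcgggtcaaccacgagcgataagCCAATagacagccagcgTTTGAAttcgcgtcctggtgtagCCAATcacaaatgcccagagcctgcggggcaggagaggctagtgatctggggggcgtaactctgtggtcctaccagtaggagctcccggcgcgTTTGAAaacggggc
Ccnb1: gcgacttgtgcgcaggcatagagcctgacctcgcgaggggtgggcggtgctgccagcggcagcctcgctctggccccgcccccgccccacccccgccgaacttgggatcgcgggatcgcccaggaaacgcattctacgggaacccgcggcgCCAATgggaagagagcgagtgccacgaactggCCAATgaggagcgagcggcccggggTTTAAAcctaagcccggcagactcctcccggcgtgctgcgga
Top2a: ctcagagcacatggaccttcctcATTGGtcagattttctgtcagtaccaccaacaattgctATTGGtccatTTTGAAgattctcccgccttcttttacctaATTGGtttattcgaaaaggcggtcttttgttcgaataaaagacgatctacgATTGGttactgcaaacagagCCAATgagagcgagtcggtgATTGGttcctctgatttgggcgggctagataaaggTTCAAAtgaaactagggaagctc
Kif11: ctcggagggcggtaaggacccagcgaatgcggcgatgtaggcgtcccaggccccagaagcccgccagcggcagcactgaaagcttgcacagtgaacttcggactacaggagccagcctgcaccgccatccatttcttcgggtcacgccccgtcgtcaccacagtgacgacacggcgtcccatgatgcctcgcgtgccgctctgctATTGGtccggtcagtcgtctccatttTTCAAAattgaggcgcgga
Plk1: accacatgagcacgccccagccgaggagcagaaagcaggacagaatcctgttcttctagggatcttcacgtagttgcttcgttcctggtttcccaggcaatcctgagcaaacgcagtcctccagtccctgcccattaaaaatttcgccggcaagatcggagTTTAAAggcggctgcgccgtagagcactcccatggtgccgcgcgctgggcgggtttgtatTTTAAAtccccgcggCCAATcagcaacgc
Ube2c: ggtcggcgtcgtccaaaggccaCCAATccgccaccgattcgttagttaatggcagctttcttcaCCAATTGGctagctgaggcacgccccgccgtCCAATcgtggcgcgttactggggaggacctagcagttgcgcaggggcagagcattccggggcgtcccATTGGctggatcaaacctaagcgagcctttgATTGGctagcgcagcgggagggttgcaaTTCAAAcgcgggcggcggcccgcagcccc

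The Ccnf window (chr17:24251410-24251659, minus strand) holds CCAAT boxes at -147 and -107 and TTTGAA at -130 and -14. In the Ccnb1 window (chr13:100786487-100786736, minus strand) 2 CCAAT boxes at -99 and -67 stand upstream of TTTAAA at -42. Top2a (chr11:99024190-99024439, minus strand) has 6 CCAAT boxes, from -227 to -58, with CHRs at -179 and -23. In the Kif11 window (chr19:37376132-37376381, plus strand) a single CCAAT box at -45 precedes TTCAAA at -19. Plk1 (chr7:122159185-122159434, plus strand) has TTTAAA at -89 and -29 and its CCAAT box at -14, so here the box lies nearer the start than these CHRs. A further Plk1 CHR, TTTGAA at position 31 after the start, lies in the searched window but beyond the printed bases. The 6 CCAAT matches of Ube2c (chr2:164769679-164769928, plus strand) include 2 that overlap, at -186 and -183, and its CHR lies at -29. Of the 6, all but Plk1 have a CCAAT box upstream of the CHR that is nearest the start in the printed bases. No match was found in the windows of Mad2l1, Nuf2 and Nusap1, which says only that these letters are not in these windows.

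**Figure D2:**
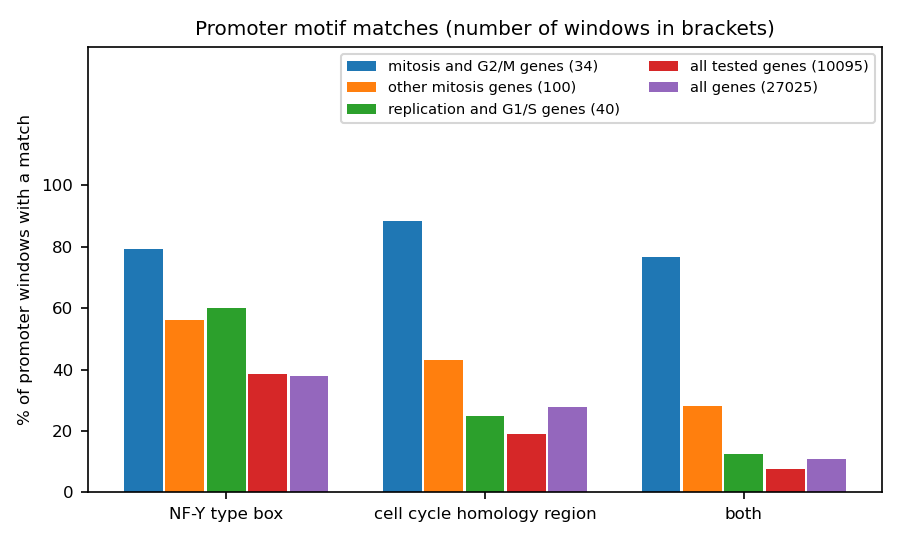
Share of promoter windows (y axis, %) with the CCAAT box (labelled NF-Y type box), the cell cycle homology region, or both, for the 34 members with a window and for 4 other sets of genes (colours). The members stand at 79.4%, 88.2% and 76.5%, and all tested genes at 38.5%, 19.0% and 7.51%.

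Among the cyclins, CDK1 and its activators 6 of 7 rose, with a median log2 fold of 0.70, the highest of the 8 roles. Ccnf encodes cyclin F, the substrate receptor of a ubiquitin ligase that restrains the cycle in G2. It stood at 17.8, 18.8, 19.7 and 19.8 CPM in E1KO 1 to 4 and at 12.1, 10.1, 10 and 10.6 CPM in E1WT 1 to 4 (log2 fold 0.83 ± 0.09, adjusted p = 9.1e-05). The groups stood well apart, as the plot of CPM by library shows. Ccna2 encodes cyclin A2, which acts in S phase and at mitotic entry, and had 33.3, 31.0, 30.0 and 31.6 CPM against 18.0, 17.4, 22.0 and 19.6 CPM (0.71 ± 0.09, adjusted p = 0.000178). Its annotated exons share 510 bases with Exosc9 on the opposite strand (log2 fold 0.30 ± 0.08), and reads there cannot be assigned, since strand use is not given. For Ccnb1, cyclin B1, the values were 18.3, 17.0, 18.7 and 18.2 CPM and 12.5, 11.7, 11.9 and 11.6 CPM (0.60 ± 0.08, adjusted p = 0.000289). Ccnb2 and Cdk1, the kinase that these cyclins activate, rose by 0.70 ± 0.10 and 0.77 ± 0.16. Foxm1, the transcription factor of G2/M genes, rose by 0.45 ± 0.12 but lost the call without E1WT 3 (adjusted p = 0.0632). Cdc25c, a phosphatase that activates CDK1, had 69 to 103 counts a library in E1KO-titled and 50 to 82 in E1WT-titled libraries and was not called (0.49 ± 0.20, adjusted p = 0.104).

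**Figure D3:**
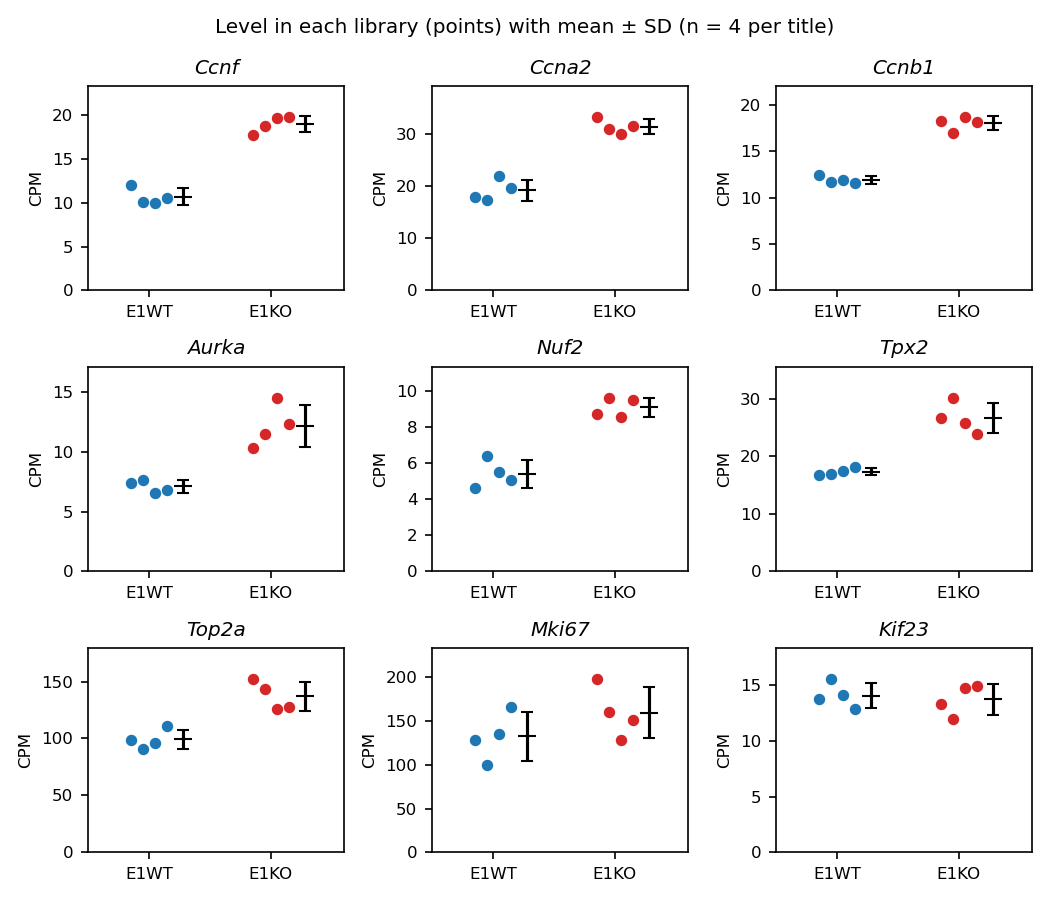
CPM (y axis, from 0) of 9 members in the 4 E1WT-titled (blue) and 4 E1KO-titled (red) libraries, 1 point per library in order of number, with the mean ± SD in black. The groups do not overlap for the 7 genes from Ccnf to Top2a, and they overlap for Mki67 and Kif23.

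Of the mitotic kinases and checkpoint genes 5 of 6 rose. Aurka, the kinase of spindle poles, stood at 10.3, 11.5, 14.5 and 12.3 CPM in E1KO 1 to 4 and at 7.40, 7.67, 6.57 and 6.80 CPM in E1WT 1 to 4 (log2 fold 0.77 ± 0.12, adjusted p = 0.000924). Bub1, a checkpoint kinase of the kinetochore, had 13.2, 11.4, 10.2 and 11.4 CPM against 7.61, 6.85, 8.26 and 6.29 CPM (0.67 ± 0.12, adjusted p = 0.00208). Plk1, which acts from mitotic entry to cytokinesis, had 14.4, 18.3, 17.6 and 17.8 CPM against 11.7, 12.6, 12.2 and 10.1 CPM (0.55 ± 0.11, adjusted p = 0.00371). In each of these 3 the lowest E1KO-titled library stayed above the highest E1WT-titled one, although Plk1 was low in E1KO 1. Ttk, the kinase that starts checkpoint signalling, and Bub1b, which encodes the checkpoint inhibitor BubR1, rose by 0.68 ± 0.16 and 0.46 ± 0.10. Mad2l1, the checkpoint protein that binds CDC20, was not called (0.24 ± 0.10, adjusted p = 0.114). Its E1WT 2 library, at 18.3 CPM, lay among the E1KO-titled ones, and it was called without that library (0.34, adjusted p = 0.0172).

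The 3 partners of the anaphase-promoting complex and separase all rose. Ube2c, its ubiquitin-conjugating enzyme, stood at 12.0, 14.4, 19.8 and 17.5 CPM in E1KO 1 to 4 and at 10.5, 11.8, 10.2 and 9.21 CPM in E1WT 1 to 4 (log2 fold 0.60 ± 0.15, adjusted p = 0.0133). It shares 592 exonic bases with Tnnc2 on the opposite strand, at 0.938 and 2.25 CPM (log2 fold -1.24 ± 0.59, not called). Espl1, separase, which cuts cohesin at anaphase, had 19.6, 18.2, 17.1 and 19.1 CPM against 14.8, 13.5, 14.2 and 15.8 CPM (0.34 ± 0.09, adjusted p = 0.0136). Cdc20, the activator that the checkpoint holds back, had 20.6, 23.4, 27.3 and 23.4 CPM against 15.1, 19.9, 19.0 and 15.1 CPM (0.45 ± 0.12, adjusted p = 0.018). Smaller overlaps join Cdc20 with Elovl1 (53 bases), Cdca8 with 9930104L06Rik (232) and Nusap1 with Oip5 (172), all on the opposite strand and none of these partners called. The groups did not overlap for Ube2c, Espl1 or Cdc20, but in Ube2c and Cdc20 the gap between them was small, and Cdc20 lost its call without E1WT 1 (adjusted p = 0.0597). Cdca3, which helps degrade the CDK1 inhibitor WEE1, rose by 0.54 ± 0.16. Its groups almost met, at 9.90 CPM in E1KO 1 and 9.88 CPM in E1WT 1, and its call was lost with the replicate number as a block (adjusted p = 0.0845) and without E1KO 3, E1KO 4, E1WT 3 or E1WT 4.

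The 4 genes of the chromosomal passenger complex, which corrects wrong spindle attachments, split into 2 that rose and 2 that were not called. Aurkb, its kinase, stood at 14.5, 14.4, 15.7 and 15.3 CPM in E1KO 1 to 4 and at 10.4, 11.2, 10.2 and 10.3 CPM in E1WT 1 to 4 (log2 fold 0.51 ± 0.08, adjusted p = 0.00135). Cdca8, borealin, had 14.6, 15.2, 16.5 and 14.2 CPM against 9.67, 11.4, 8.15 and 8.44 CPM (0.68 ± 0.12, adjusted p = 0.00172). Both separated the titles fully. Birc5, survivin, lay at 8.30 to 8.59 CPM in the E1WT-titled libraries but spread from 8.25 to 13.6 CPM in the E1KO-titled ones (0.39 ± 0.14, adjusted p = 0.0616), and it was called without E1KO 1 (adjusted p = 0.0072). Incenp, the scaffold of the complex, was nearly level at 55.1 ± 2.51 and 52.2 ± 1.96 CPM (SD, n = 4 each; log2 fold 0.08 ± 0.06, adjusted p = 0.366).

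Of the centromere and kinetochore genes 3 of 7 rose, Nuf2, Cenpa and Spc25, and the median log2 fold of the 7 was 0.31. Nuf2, a subunit of the NDC80 complex that grips microtubules, stood at 8.71, 9.59, 8.57 and 9.49 CPM in E1KO 1 to 4 and at 4.62, 6.41, 5.52 and 5.07 CPM in E1WT 1 to 4 (0.75 ± 0.12, adjusted p = 0.00132). Cenpa, the histone variant that marks centromeres, had 28.6, 32.0, 39.0 and 32.9 CPM against 26.8, 27.2, 25.6 and 21.8 CPM (0.39 ± 0.10, adjusted p = 0.020). Spc25, another NDC80 complex subunit, had 5.14, 6.40, 6.50 and 6.59 CPM against 3.61, 5.14, 4.83 and 4.05 CPM (0.48 ± 0.15, adjusted p = 0.0392). The lowest E1KO-titled and highest E1WT-titled value of Spc25 were as good as equal, and its call was lost in 6 of the 8 fits that left out a library, with adjusted p values from 0.0613 to 0.107. Cenpa lost its call without E1KO 3 (adjusted p = 0.0513) and, barely, without E1KO 4 or E1WT 3 (0.0503 and 0.0501). The other subunits of the NDC80 complex, Ndc80 and Spc24, had log2 folds of 0.28 ± 0.14 and 0.26 ± 0.16 and were not called, and Ndc80 was called without E1KO 1 (adjusted p = 0.0385). The large coiled-coil proteins Cenpe, a kinesin, and Cenpf were not called either (0.31 ± 0.11 and 0.21 ± 0.15, adjusted p = 0.0571 and 0.348). Cenpe was called without E1KO 3 or without E1WT 4 (adjusted p = 0.0463 and 0.0201).

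All 6 spindle motors and assembly factors rose, by 0.44 to 0.62. Tpx2, which activates Aurora A on the spindle, stood at 26.7, 30.1, 25.8 and 23.9 CPM in E1KO 1 to 4 and at 16.7, 17.0, 17.5 and 18.2 CPM in E1WT 1 to 4 (log2 fold 0.62 ± 0.09, adjusted p = 0.000406). Kif11, the kinesin that pushes spindle poles apart, had 47.9, 40, 40.7 and 40.9 CPM against 30.1, 29.1, 30.4 and 34.4 CPM (0.45 ± 0.08, adjusted p = 0.00224). Nusap1, a microtubule bundling protein, had 16.2, 16.8, 16.5 and 18.2 CPM against 11.9, 12.4, 12.7 and 12.9 CPM (0.44 ± 0.08, adjusted p = 0.00278). None of the 6 had overlapping groups. Kif2c, a kinesin that takes microtubules apart, and Hmmr, a spindle pole protein, rose by 0.61 ± 0.13 and 0.53 ± 0.14, and Hmmr lost its call without E1KO 4 (adjusted p = 0.0611). Kif4, a chromosome-bound kinesin and the X-linked member, rose by 0.48 ± 0.10. It shares 832 exonic bases with Pdzd11 on the opposite strand, which had a log2 fold of 0.06 ± 0.16.

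The central spindle and cytokinesis genes held both the highest and the lowest fold of all members, and 3 of 6 rose. Anln, anillin, the scaffold of the contractile ring, stood at 13.1, 14.2, 10.3 and 12.2 CPM in E1KO 1 to 4 and at 6.28, 5.14, 6.85 and 9.18 CPM in E1WT 1 to 4 (log2 fold 0.86 ± 0.17, adjusted p = 0.00371). Racgap1, a subunit of centralspindlin, had 39.9, 42.9, 39.9 and 41.0 CPM against 32.0, 35.1, 31.9 and 32.9 CPM (0.31 ± 0.06, adjusted p = 0.00428). Prc1, which bundles the microtubules of the midzone, had 20.7, 20.4, 19.8 and 20.9 CPM against 17.1, 15.4, 17.3 and 15.1 CPM (0.34 ± 0.08, adjusted p = 0.0107). The titles were fully apart in each of these 3. Prc1 shares 911 exonic bases with Rccd1 on the opposite strand, which fell by 0.43 ± 0.11 on the log2 scale. Kif23, the kinesin that forms centralspindlin together with RACGAP1 and was not called, had 13.3, 11.9, 14.7 and 14.9 CPM against 13.7, 15.5, 14.1 and 12.8 CPM (-0.03 ± 0.10, adjusted p = 0.843). Kif20a, a kinesin of the midzone, and Ect2, which activates RhoA for furrowing, were not called (0.27 ± 0.11 and 0.23 ± 0.14, adjusted p = 0.0965 and 0.244). Kif20a shares 1271 exonic bases, the most of any member, with Cdc23 on the opposite strand, which stood at 56.0 and 59.6 CPM (log2 fold -0.09 ± 0.06).

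The last 2 members coat or untangle chromosomes and have, with Incenp, the highest levels per length. Mki67 encodes the Ki-67 protein of mitotic chromosome surfaces, a standard marker of dividing cells, and Top2a the enzyme that untangles sister chromatids. In the E1WT-titled libraries Mki67, Incenp and Top2a stood at 13.1, 12.1 and 11.0 CPM per kilobase of exon, where the median member stood at 2.48. Top2a had 152, 143, 126 and 127 CPM in E1KO 1 to 4 and 99.0, 91.2, 95.7 and 111 CPM in E1WT 1 to 4 (log2 fold 0.47 ± 0.08, adjusted p = 0.0015). Mki67 had 197, 160, 128 and 151 CPM against 128, 99.2, 135 and 166 CPM (0.27 ± 0.15, adjusted p = 0.224). The Mki67 groups overlapped widely, with E1WT 4 above 3 of the E1KO-titled libraries. Libraries differed in how levels followed exon length, with a Spearman correlation across genes from -0.32 in E1KO 3 to 0.32 in E1WT 4, and with that trend removed Mki67, Cenpf and Cenpe, all with over 8 kilobases of exon, were called (log2 folds 0.32, 0.33 and 0.34, adjusted p = 0.0333, 0.0241 and 0.0126).

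**Figure D4:**
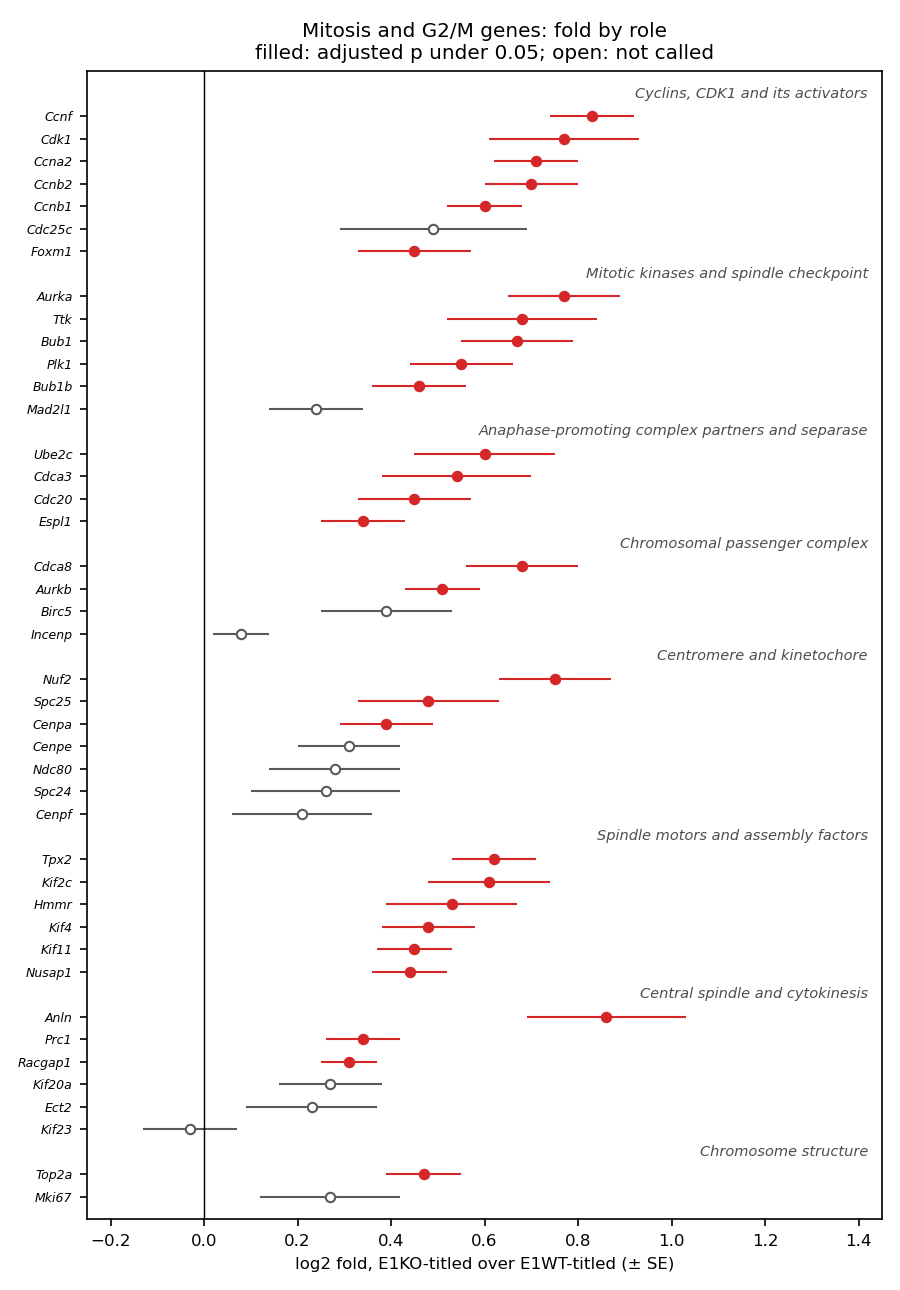
Log2 fold of each of the 42 members, E1KO-titled over E1WT-titled (x axis), with its SE, grouped by role. The 30 filled points passed an adjusted p under 0.05 in edgeR and lie between 0.31 and 0.86, and the 12 open points were not called and lie between -0.03 and 0.49.

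The 12 members that were not called were Cdc25c, Mad2l1, Birc5, Incenp, Cenpe, Cenpf, Ndc80, Spc24, Kif20a, Kif23, Ect2 and Mki67, and in each the groups overlapped. Missing the threshold does not show that they were level, and 6 of them were called in at least 1 alternative analysis. Across the 42 members the log2 fold went down with the mean level (Spearman correlation -0.40) and with exon length (-0.30), a description over genes measured in the same 8 libraries.

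Among mitosis genes outside the 42 a smaller share rose, 30.8% against 71.4% of the members, a difference that was not tested. Of all tested genes 12.2% rose and 11.1% fell. Of 117 tested genes in this wider list, which includes subunits of the anaphase-promoting complex, cohesin and condensin that cells also use outside mitosis, 36 rose and 1, Cenpc1, fell (log2 fold -0.27), with a median log2 fold of 0.23. By role, 8 of 16 entry kinases and phosphatases rose, 6 of 10 cytokinesis and late mitotic genes, 8 of 28 centromere genes, 7 of 20 spindle genes, 5 of 17 cohesin and condensin genes and 2 of 26 checkpoint and anaphase-promoting complex genes. Cdc25b, the phosphatase that starts CDK1 activation, had 118, 119, 125 and 120 CPM in E1KO 1 to 4 and 93.7, 85.7, 87.7 and 85.7 CPM in E1WT 1 to 4 (0.45 ± 0.05, adjusted p = 0.000113). Melk, a kinase of proliferating cells, had 11.5, 9.50, 9.83 and 9.88 CPM against 4.18, 5.09, 5.48 and 5.41 CPM (1.01 ± 0.12, adjusted p = 0.000163). Psrc1, a spindle protein, rose by 1.47 ± 0.20 from a mean of 1.40 to 3.90 CPM. These 3 did not overlap between titles.

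Genes of DNA replication and G1/S also rose, 29 of 49 (59.2%, where 12.2% of all tested genes did). In this list 1 fell (Pold1), and the median log2 fold was 0.34. Rrm1, a ribonucleotide reductase subunit, and Mcm7, part of the replicative helicase, rose by 0.50 ± 0.05 and 0.51 ± 0.05, and Cdc6, which loads that helicase, by 1.01 ± 0.10. Beside the members' 71.4% and 0.47 these shares and medians were not tested against each other. In their promoter windows a CCAAT box was present in 60% and a CHR in 25% of 40 genes, against 79.4% and 88.2% for the members.

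Among genes that hold the cycle back or set its transcription, 5 of 21 tested rose, a share of 23.8%. Of all tested genes 12.2% rose and 11.1% fell. In this list 0 fell in edgeR, in DESeq2 or in edgeR at an unadjusted p under 0.05. Without E1KO 2, or without E1WT 1, 3 rose. Of the 5, E2f8, a repressor that is itself made in S phase, rose by 0.76 ± 0.10, Mybl2, the B-MYB partner of MuvB at G2/M promoters, by 0.59 ± 0.08, and Cdkn1a, the p21 inhibitor, by 1.19 ± 0.28. Mybl2 had 15.6, 15, 17.3 and 16.4 CPM in E1KO 1 to 4 and 10.6, 10.2, 11.0 and 10.8 CPM in E1WT 1 to 4. Cdkn1a was low throughout, at 2.06 to 3.46 and 0.87 to 1.81 CPM. The others that rose were Cdkn2c (0.40 ± 0.12) and the pocket protein gene Rbl2 (0.19 ± 0.06), both named after their values were seen. Cdkn1b, the p27 inhibitor of resting T cells, stood at 226 CPM in both titles.

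Markers of several other cell types moved with the mitotic genes, and their part in the result was not tested. The counts below stand beside 12.2% of all tested genes that rose and 11.1% that fell. Of 20 erythroid markers 14 were tested and 12 rose (median log2 fold 1.19), with summed levels of 265 to 293 CPM in E1KO-titled and 101 to 123 CPM in E1WT-titled libraries. Car1, a carbonic anhydrase, and Klf1, the erythroid transcription factor, rose by 1.54 ± 0.12 and 1.62 ± 0.13. The 6 globin genes of the list are listed at 0 in every library, and whether their RNA was absent or went uncounted was not tested. Alas2, the haem synthesis enzyme of red cells, was not called, with means of 1.13 and 1.91 CPM. Dendritic cell and macrophage markers rose in 9 of 14 cases and fell in 1 (C1qb), with sums of 102 to 115 and 46.3 to 54.6 CPM, and NK cell markers rose in 5 of 9, with sums of 190 to 207 and 155 to 168 CPM. In the germinal-centre B and plasma cell list 1 of 10 rose, Jchain, at sums of 888 to 1097 and 626 to 828 CPM. Among B cell markers 2 of 9 rose and 1 fell, among neutrophil markers 1 of 10 rose and 3 fell, and of the CD8 genes Cd8a fell and Cd8b1 was not called.

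Markers within the T cell lineage moved too, where 12.2% of all tested genes rose and 11.1% fell. Of 10 CD4 T cell markers 6 fell and 1, Cd5, rose, with sums of 4195 to 4607 CPM in E1KO-titled and 4968 to 5393 CPM in E1WT-titled libraries. Naive markers fell in 3 of 8 cases (Tcf7, S1pr1 and Satb1) and rose in 2. Activation markers rose in 3 of 7 (Il2ra, Tnfrsf4 and Tnfrsf9) and regulatory T cell markers in 3 of 6 (Foxp3, Il2ra and Nrp1), and in edgeR 0 genes of these 2 lists were lower at an adjusted or an unadjusted p under 0.05. The regulatory T cell sums were 683 to 738 CPM and 504 to 573 CPM. All marker genes in this paragraph beyond the list counts were named after their values were seen.

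**Figure D5:**
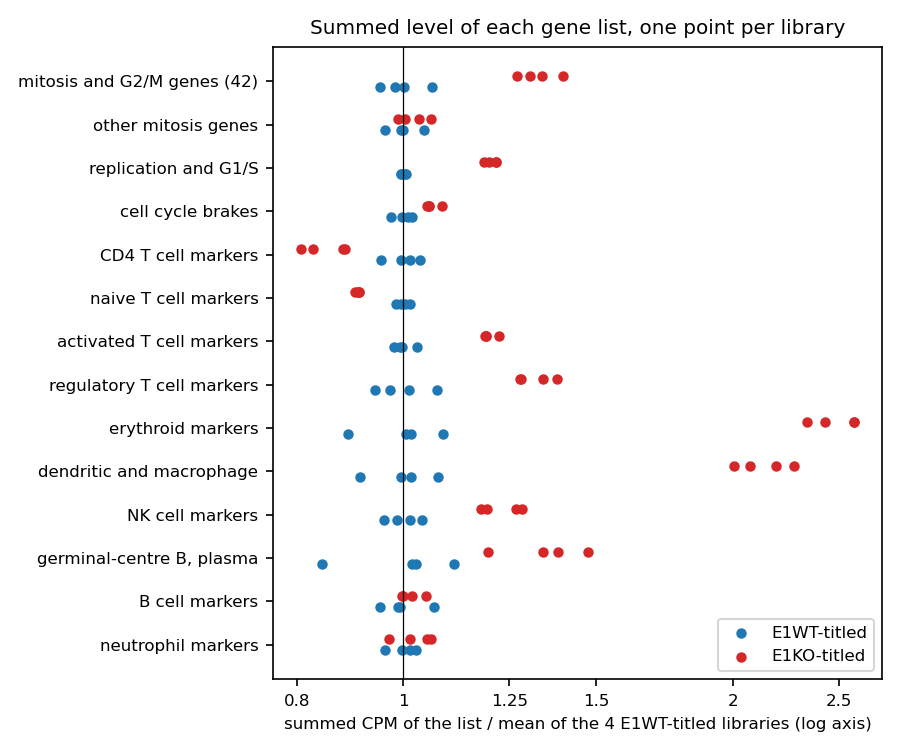
Summed CPM of each gene list in each library, divided by the mean of the 4 E1WT-titled libraries (x axis, log scale), with E1KO-titled libraries in red and E1WT-titled in blue. The members have no overlap between titles (982 to 1081 against 736 to 822 CPM), the erythroid and the dendritic and macrophage lists lie farthest to the right, and the CD4 and naive T cell markers lie below 1.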

How the data were processed

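Gene-level read counts of 8 libraries were used, as deposited by the authors. Build mm10, TopHat2 2.1.0 and HTSeq 0.9.1 appear, per the submitters' processing notes. Annotation and strand setting were not given in the sources used here. In all, the 5 closing rows of each file, name no gene and were left out (28.2% to 30.8% of counts in E1KO-titled and 33.3% to 37.0% in E1WT-titled files).

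Libraries were grouped by title. The test was edgeR 4.0.16, run under R 4.3.3 (TMM scaling, filterByExpr with a count minimum of 10 and a total minimum of 15, quasi-likelihood test, Benjamini-Hochberg adjustment over 13333 genes at 0.05). CPM values carry the TMM factors, SEs come from the F statistic, and SDs are over 4 libraries. Pairs of libraries of 1 title differed by more than counting noise (chi-square per degree of freedom 4.00 to 64.8), so none were merged as duplicates. That does not show separate animals.

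The members, lists and alternatives were chosen with earlier results of these data known. Of the members, all called ones with the smallest p in each role (up to 3) and those with the extreme folds are given by library, as are Pcbp1 and Mki67, the last chosen after its values were seen. From each of the other cell cycle lists, up to 3 called genes with the smallest p are named, and further names were chosen after their values were seen. Some marker genes are not reported here by name.

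Positions and exon lengths come from GENCODE M21 (GRCm38, the assembly of mm10). Promoters come from RefSeq (GRCm38.p6), with the first window listed for each gene. Alternatives were DESeq2 size factors, the DESeq2 1.42.0 test, limma-voom (limma 3.58.1), other count filters, the replicate number as a block, libraries left out and removal of an exon-length trend. The test was checked on simulated counts.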

Additional observations from a re-analysis of the deposited data

Results flagged for a closer look

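In 6 of 104 groups of 4 libraries examined (52 genes), the highest or lowest library stood apart from the others by more than Dixon's 95% limit for 4 values, where chance gives about 1 in 20. Plk1 was low in E1KO 1 at 14.4 CPM, with the others from 17.6 to 18.3 CPM. Spc25 was low in the same library at 5.14 CPM, with the next at 6.40 CPM, and Kif11 was high there at 47.9 CPM, with the others from 40 to 40.9 CPM. Ndc80 was low in E1WT 4 at 9.26 CPM and Kif4 high in E1KO 3 at 14.6 CPM, both within groups of narrow range. E2f8 was high in E1WT 3 at 9.96 CPM, with the next at 8.19 CPM.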

How the results depend on the processing

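The count of members that rose was 26 to 33 over the 16 alternatives, and 0 fell in any of them. Their median log2 fold ran from 0.443 to 0.491 when a library was left out. Of the 30 members that rose, 24 kept the call in every alternative, and Foxm1, Cdc20, Cdca3, Cenpa, Spc25 and Hmmr lost it in at least 1. Birc5 and Cenpe were also called by DESeq2 (adjusted p = 0.0392 and 0.0452). Kif23 had log2 folds from -0.077 to 0.028 when a library was left out, positive without E1KO 2 (0.028) and without E1WT 2 (0.020), and was called in neither. With the replicate number as a block 29 members rose, with a median log2 fold of 0.475, and 3 rather than 5 of the cycle regulators. Libraries of the same number did not deviate together (correlations -0.10 to 0.01), and those of different numbers had correlations from -0.32 to 0.26. Other differences between libraries enter these values, so they cannot show whether libraries of the same number were prepared together. Pcbp1 stayed called in all alternatives. Leaving out E1KO 1 and E1WT 4 together gave 32 members that rose. Members had 50 to 7179 counts a library.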
